A study of Mus musculus with 24 samples.

Results

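The TNF superfamily is the set of ligands related to tumour necrosis factor together with the receptors that bind them, and its messenger RNA levels were followed in mouse lung after bleomycin injury and gapmer treatment. Members were the array genes whose symbol begins with Tnfsf or Tnfrsf and a number, with Tnf, Lta, Ltb, Ltbr, Fas, Fasl and Cd40lg added. The rule uses names and no measured value. It found 37 of the 20728 named genes, of which 15 encode ligands and 22 receptors. Of the 37, 25 had 1 array feature (a spot that carries a probe) and 12 had several, and the feature with the highest mean over all arrays stood for the gene.

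Total RNA of whole lung from C57BL/6 mice aged 9 to 12 weeks was measured on 24 one-colour arrays, 1 per sample. All mice had received a gapmer, an antisense oligonucleotide that directs cleavage of the RNA it pairs with, by transfection per the labels, and either bleomycin or PBS. Bleomycin is a DNA-damaging drug whose lung injury is followed by fibrosis, and PBS is the saline vehicle. The groups were bleomycin with gapmer 1, bleomycin with gapmer 3 and bleomycin with the control gapmer (n = 5 each), and PBS with gapmer 1, PBS with gapmer 3 and PBS with the control gapmer (n = 3 each). Gapmers 1 and 3 are directed against Dnm3os, a noncoding transcript from the strand opposite to Dnm3. The sources used here do not give the target of the control gapmer, the dose, the time after treatment, the sex of the mice or an array batch. Whole lung holds many cell types, so fewer cells of a type and less RNA per cell cannot be told apart in any value below.

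Most TNF superfamily ligands are membrane proteins that act as trimers, on the cell or after being shed, and draw their receptors into clusters. Receptors with a death domain can start caspase-driven cell death, and most of the others bind TRAF adaptors and switch on NF-kB, a family of transcription factors. In the lung, T cells, B cells, macrophages, endothelium and epithelium all carry members, which serve inflammation, lymphocyte co-stimulation, lymphoid tissue formation and the killing of damaged cells.

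Values are log2 intensities, so a difference of 1 is a doubling, and they ran from 5.03 to 18.25. A probe's intensity depends on its own sequence, so levels are compared between groups and not between genes. The deposited table holds no detection calls. The 25th percentile of the gene means, 6.11, is therefore used as a dim level: where a group lies under it, the fold is given as a lower bound against that level. Of the 37 members, 4 had a mean under it over all arrays, namely Cd40lg at 5.52, Tnfsf4 at 5.58, Tnfrsf8 at 5.61 and Tnfsf11 at 6.08. A gene was called where the limma p-value, adjusted over all 20728 genes of a comparison, was under 0.05.

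Dnm3os averaged 6.18 with gapmer 1, 6.40 with gapmer 3 and 6.90 with the control gapmer in bleomycin mice, and was lower with both gapmers that target it (differences -0.72 and -0.50, limma adjusted p = 0.000186 and 0.00293). In PBS mice it averaged 5.89, 6.10 and 6.34 in the same order, and neither difference was called (-0.45 and -0.25, limma adjusted p = 0.0882 and 0.577). All 3 PBS arrays of each of these gapmers lay below every PBS control array. Both gapmer means were under the dim level, so the PBS comparison of Dnm3os gives bounds only. The lung markers Sftpc and Scgb1a1 lay near the top of the scale in every group, with Sftpc between 17.87 and 18.25 in bleomycin mice. Arrays correlated with each other at 0.974 to 0.998 over all genes. Replicate 4 of bleomycin with gapmer 1 stood apart from its group in several members, and replicate 3 of bleomycin with the control gapmer carried signal of thymus genes. Values without each are given beside several of the results. No animal is named in the labels, only sample numbers, and each p-value reflects spread among these samples, which may be technical, and the number of arrays limits the precision.

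In bleomycin mice with the control gapmer, set against PBS mice with the same gapmer, 25 of the 37 members were called, 19 higher and 6 lower. Over all genes 33.8% were called in this comparison, 14.5% higher and 19.3% lower. The median log2 difference was 0.26 over the members and -0.02 over all genes. Among the 15 ligands 6 were higher and 4 lower, and among the 22 receptors 13 were higher and 2 lower. The T cell co-stimulatory receptors Tnfrsf4 (OX40) and Tnfrsf18 (GITR), the GITR ligand Tnfsf18 and the TWEAK receptor Tnfrsf12a had the largest measured rises, that of Tnfsf18 against a dim PBS level, and Tnfsf10 (TRAIL) had the largest fall.

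With gapmer 1 in bleomycin mice, 14 members were lower than with the control gapmer and 0 were higher, where 10.5% of all genes were called, 5.47% higher and 5.08% lower. With gapmer 3 in bleomycin mice, 13 members were lower and 1, Tnfsf10, was higher, where 13.2% of all genes were called, 5.63% higher and 7.52% lower. The median difference over members was -0.15 with each gapmer, against 0.02 over all genes with gapmer 1 and 0.01 with gapmer 3. Both comparisons use the same 5 control arrays, so their values are given side by side and are not independent of each other. Without replicate 2 of gapmer 1, or without replicate 2 or 4 of the bleomycin control gapmer, 9 members were called with gapmer 1. The largest falls with both gapmers included those of Tnfrsf13c (the BAFF receptor), Tnfsf18, Lta, Tnfsf8, Tnfrsf4, Tnfrsf18 and Ltb.

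**Figure D1:**
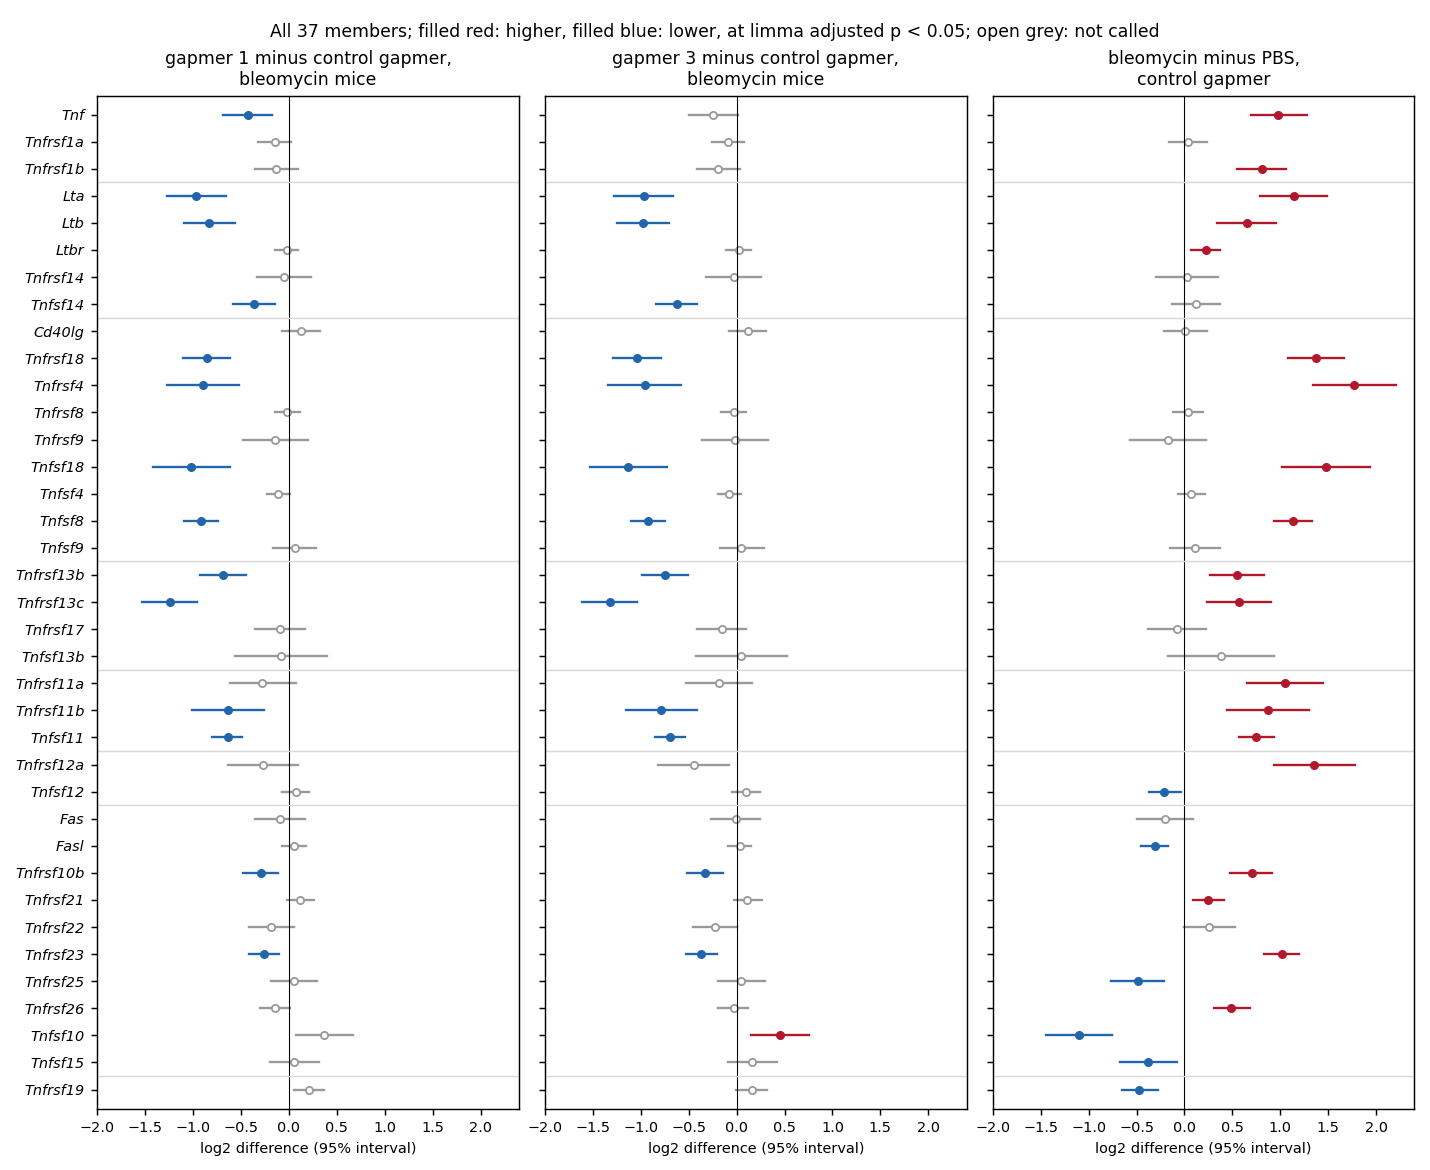
Log2 differences of all 37 members with 95% intervals from the limma fit, gapmer 1 minus control gapmer in bleomycin mice (left), gapmer 3 minus control gapmer in bleomycin mice (middle) and bleomycin minus PBS with the control gapmer (right); grey lines separate the axes of the family. Filled red points are called higher and filled blue points called lower: 19 and 6 on the right, 0 and 14 on the left, 1 and 13 in the middle.

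Lymphocyte co-stimulation is served by 9 members, ligand and receptor pairs that give activated T cells a second signal. With bleomycin and the control gapmer 4 of the 9 rose and 0 fell, and with each gapmer in bleomycin mice 4 fell and 0 rose, against shares of all genes of 14.5% higher with bleomycin and 5.08% and 7.52% lower with gapmers 1 and 3. Tnfrsf4 encodes OX40, a receptor of activated and regulatory T cells. Its levels were 10.11, 9.63, 9.74, 10.69 and 10.08 with bleomycin and gapmer 1 and 10.38, 9.84, 9.48, 10.13 and 10.10 with bleomycin and gapmer 3. They were 11.20, 11.19, 10.73, 11.13 and 10.47 with bleomycin and the control gapmer. PBS mice had 9.63, 9.37 and 9.28 with gapmer 1, 9.10, 9.10 and 9.15 with gapmer 3 and 9.15, 9.05 and 9.32 with the control gapmer. Every bleomycin array of the control gapmer lay above all 9 PBS arrays, and of the 10 bleomycin arrays of gapmers 1 and 3 only replicate 4 of gapmer 1 came within the range of the control gapmer. The rise with bleomycin was 1.77 ± 0.21 (SE), 3.42-fold (limma adjusted p = 1.25e-06). Against the control gapmer it was lower by 0.90 ± 0.18 (SE) with gapmer 1 (limma adjusted p = 0.00286) and by 0.96 ± 0.18 (SE) with gapmer 3 (limma adjusted p = 0.00111). Without replicate 4 of gapmer 1 its difference with gapmer 1 was -1.06, and without replicate 3 of the bleomycin control gapmer it was -0.95 with gapmer 1 and -1.01 with gapmer 3, all called.

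Tnfrsf18, which encodes GITR, a receptor carried at high level by regulatory T cells, is the neighbour of Tnfrsf4 on chromosome 4 with no protein-coding gene between them. It measured 9.33, 9.08, 9.33, 9.74 and 9.49 with bleomycin and gapmer 1, and 9.36, 9.16, 8.85, 9.38 and 9.32 with bleomycin and gapmer 3. The bleomycin arrays of the control gapmer gave 10.16, 10.47, 10.22, 10.38 and 10.05, and the PBS arrays of that gapmer 8.69, 8.85 and 9.12. None of the 10 gapmer 1 and gapmer 3 bleomycin arrays reached the lowest of the 5 control arrays, and the 6 PBS arrays of gapmers 1 and 3 lay between 8.67 and 9.07. The bleomycin difference was 1.37 ± 0.14 (SE, limma adjusted p = 1.96e-07), and the differences from the control gapmer in bleomycin mice were -0.86 ± 0.12 with gapmer 1 and -1.04 ± 0.12 with gapmer 3 (limma adjusted p = 9.88e-05 and 7.51e-06). The ligand of this receptor, Tnfsf18, followed it. Tnfsf18 had 6.15, 5.88, 5.65, 7.21 and 6.17 with bleomycin and gapmer 1 and 6.18, 6.12, 5.88, 6.21 and 6.14 with bleomycin and gapmer 3. With the control gapmer it had 7.43, 7.51, 7.05, 7.31 and 6.87 in bleomycin mice and 5.89, 5.71 and 5.67 in PBS mice. In PBS mice the group means, between 5.76 and 5.79, were under the dim level, so Tnfsf18 was at least 2.18-fold higher with bleomycin, where the measured difference was 1.48 ± 0.22 (SE, limma adjusted p = 2.1e-05). With gapmer 3 it was also under the dim level and at least 2.18-fold lower than with the control gapmer (-1.13 ± 0.19, SE, limma adjusted p = 0.000439). The gapmer 1 difference of -1.02 ± 0.19 (SE, limma adjusted p = 0.00161) became -1.27 without replicate 4 of that group, the only gapmer 1 array at the level of the control gapmer.

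Tnfsf8 encodes CD30 ligand, a co-stimulatory ligand of activated lymphocytes. Its bleomycin levels were 6.80, 6.66, 6.64, 6.80 and 6.51 with gapmer 1, 6.71, 6.63, 6.53, 6.73 and 6.77 with gapmer 3 and 7.73, 7.83, 7.54, 7.55 and 7.33 with the control gapmer. Its PBS levels were 6.66, 6.61 and 6.52 with gapmer 1, 6.52, 6.58 and 6.36 with gapmer 3 and 6.53, 6.55 and 6.32 with the control gapmer. All 5 bleomycin arrays of the control gapmer lay above the other 19 arrays. Tnfsf8 had the smallest adjusted p of any member in all 3 comparisons, at 1.13 ± 0.10 (SE) with bleomycin, -0.92 ± 0.08 with gapmer 1 and -0.93 ± 0.08 with gapmer 3 (limma adjusted p = 1.99e-08, 3.35e-07 and 2.22e-07). The CD30 receptor itself, Tnfrsf8, lay between 5.47 and 5.83 on all 24 arrays, under the dim level. Tnfsf4, the OX40 ligand, and Cd40lg, the CD40 ligand of helper T cells, were as dim, and no call was made for any of these 3 in any comparison. The 4-1BB ligand Tnfsf9 differed by 0.11 ± 0.12 (SE) with bleomycin and was not called. Its receptor Tnfrsf9 (4-1BB) was not called on its brighter feature, with a bleomycin difference of -0.17 ± 0.19 (SE), but its dimmer feature, mean 6.58, differed by 1.15 with bleomycin, -0.57 with gapmer 1 and -0.66 with gapmer 3, all called (limma adjusted p = 4.27e-06, 0.00679 and 0.00169 over all features). With the mean of both features the bleomycin difference of Tnfrsf9 was 0.49 (limma adjusted p = 0.000147), so its direction depends on the feature.

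The promoters of Tnfrsf4, Tnfrsf18 and Tnfsf18 are shown because these 3 had the largest measured differences with bleomycin under the control gapmer. All 3 were higher with bleomycin and lower with both gapmers, as were other members. Each runs from 250 bases before to 50 bases after the transcript start, from RefSeq on build GRCm38.p6. The order of Tnfsf18 among the rises is not established, since its PBS level is dim and only a bound is known. Tnfrsf4 lies at chr4:156013445-156013744 and Tnfrsf18 at chr4:156026072-156026371, and Tnfsf18 lies at chr1:161494407-161494706, all on the plus strand. Capitals mark the TATA box letters TATAAA, found on the plus strand of Tnfsf18 at position -34 from the start. No match to the NF-kB consensus, to TATAAA or to the AP-1 letters TGANTCA was found in the other two sequences on either strand.
Tnfrsf4: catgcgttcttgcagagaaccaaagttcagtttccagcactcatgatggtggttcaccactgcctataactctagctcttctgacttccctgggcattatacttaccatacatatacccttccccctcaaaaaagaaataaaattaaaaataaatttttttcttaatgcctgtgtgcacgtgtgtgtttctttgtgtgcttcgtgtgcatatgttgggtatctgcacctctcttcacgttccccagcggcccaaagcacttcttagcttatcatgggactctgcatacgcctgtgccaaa
Tnfrsf18: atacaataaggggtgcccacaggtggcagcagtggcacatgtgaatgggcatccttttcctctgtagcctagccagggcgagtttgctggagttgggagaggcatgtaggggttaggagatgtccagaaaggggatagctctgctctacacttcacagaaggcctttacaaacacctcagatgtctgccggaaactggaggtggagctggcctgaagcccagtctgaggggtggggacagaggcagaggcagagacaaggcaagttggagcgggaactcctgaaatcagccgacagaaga
Tnfsf18: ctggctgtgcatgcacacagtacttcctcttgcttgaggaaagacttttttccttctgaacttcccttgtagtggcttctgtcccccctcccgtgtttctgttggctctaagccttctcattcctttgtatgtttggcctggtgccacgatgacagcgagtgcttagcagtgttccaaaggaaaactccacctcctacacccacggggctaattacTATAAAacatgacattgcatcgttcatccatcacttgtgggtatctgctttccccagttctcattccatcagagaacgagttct

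RefSeq promoters were matched for 29 of the 37 members, 33 sequences in all. TATAAA stood in 6 of these 33 sequences, where 13.6% of 32851 mouse promoters hold it. TGANTCA stood in 6 of the 33, from 5 members, against 7.81%. The NF-kB consensus was found in 4 of the 33 (1 each of Ltb, Tnfrsf25, Tnfrsf8 and Tnfrsf9), against 8.46% of all promoters. Both strands were searched. A match describes the letters of these windows and no binding was measured.

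**Figure D2:**
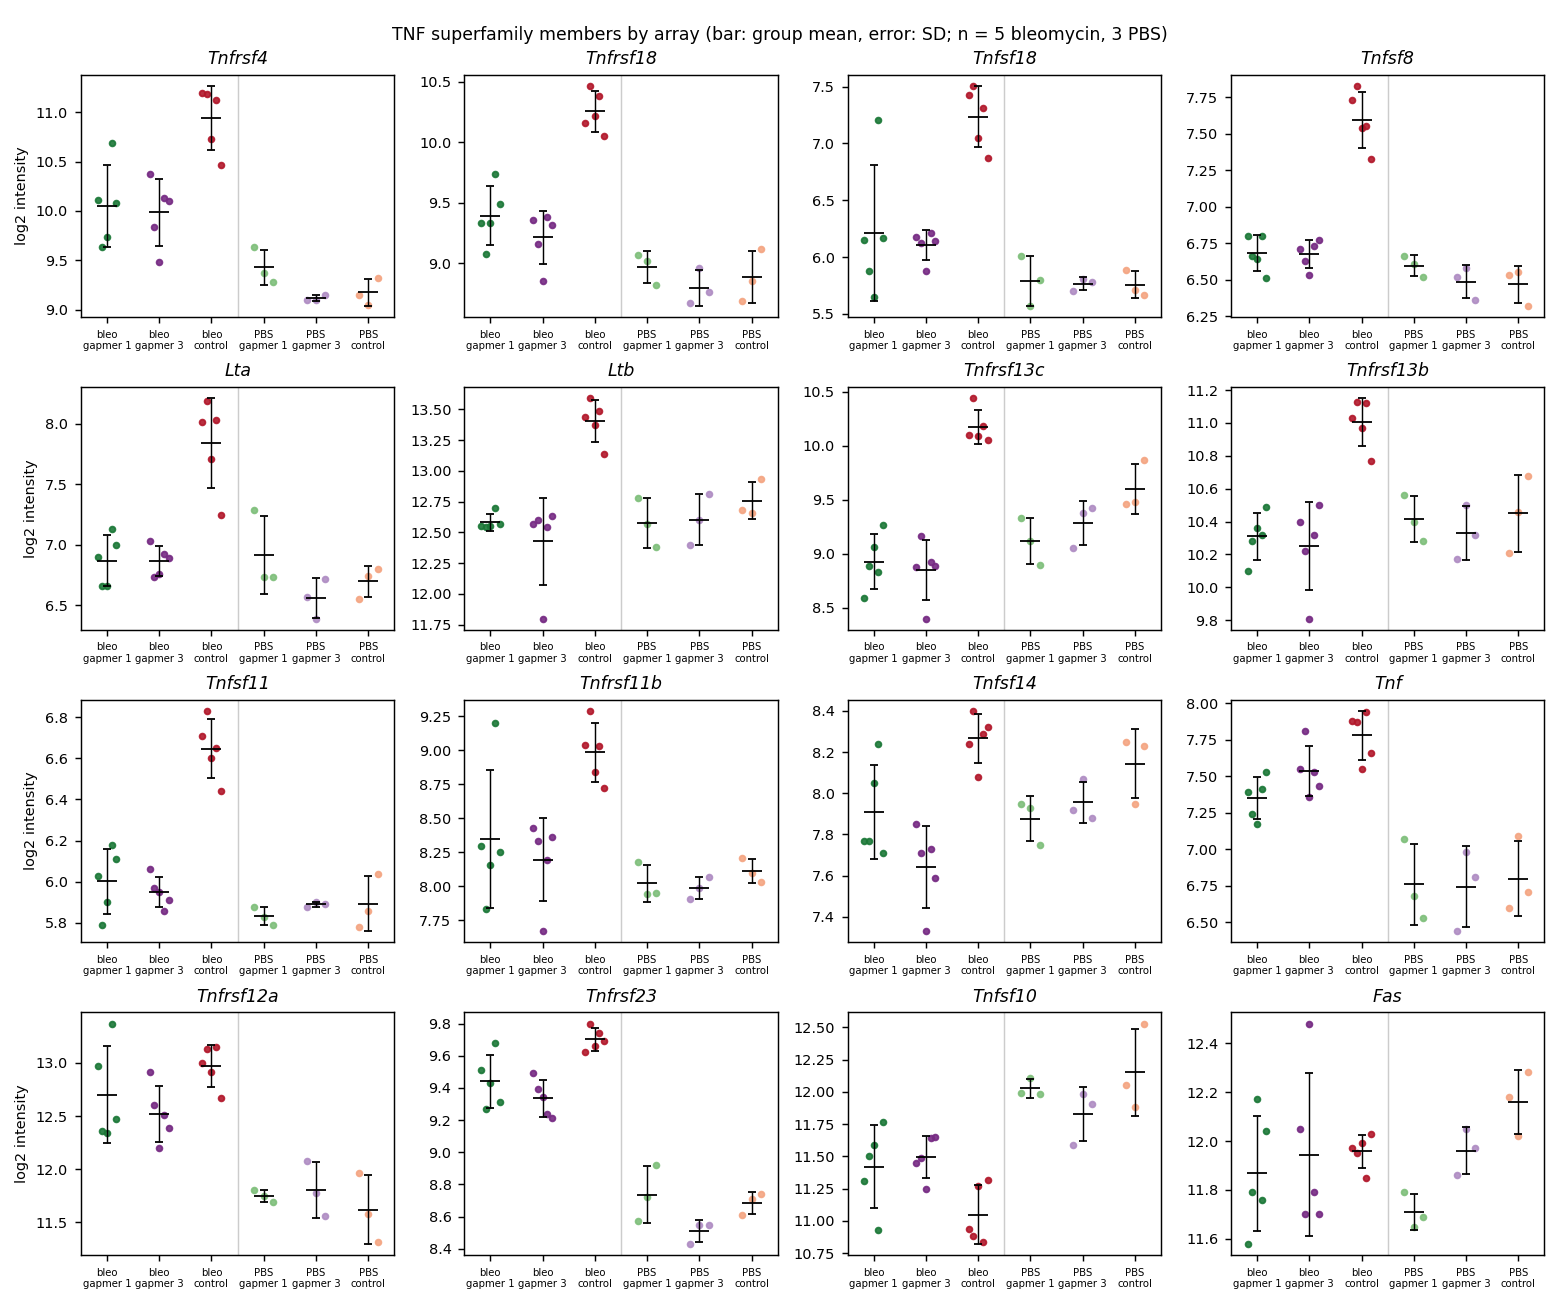
Log2 intensity of 16 members on each of the 24 arrays, with bleomycin groups left of the line and PBS groups right of it; the bar is the group mean and the error bar the SD. In the first 10 panels the bleomycin arrays of the control gapmer sit above the PBS arrays of the same gapmer and above most gapmer 1 and gapmer 3 arrays, Tnf and Tnfrsf12a stay raised with all gapmers, and Tnfsf10 is low in bleomycin mice.

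The lymphotoxin and LIGHT axis, which serves the formation of lymphoid tissue, holds 5 members. With bleomycin and the control gapmer 3 of the 5 rose, where 14.5% of all genes did. With each gapmer in bleomycin mice 3 fell, where 5.08% of all genes did with gapmer 1 and 7.52% with gapmer 3. Lta, lymphotoxin alpha, which is made by activated lymphocytes, had 6.90, 6.66, 6.66, 7.13 and 7.0 with bleomycin and gapmer 1 and 7.03, 6.73, 6.76, 6.92 and 6.89 with bleomycin and gapmer 3. The control gapmer gave 8.02, 8.19, 7.71, 8.03 and 7.25 in bleomycin mice and 6.55, 6.74 and 6.80 in PBS mice. The 5 bleomycin control arrays lay above all 10 bleomycin arrays of gapmers 1 and 3, and the 6 PBS arrays of those gapmers lay between 6.39 and 7.29. The bleomycin difference was 1.14 ± 0.17 (SE, limma adjusted p = 1.96e-05), and the differences from the control gapmer were -0.97 ± 0.15 with gapmer 1 and -0.97 ± 0.15 with gapmer 3 (limma adjusted p = 0.000234 and 0.000134). All 10 features of Lta gave the same signs in these 3 comparisons, but whether they carry different probes was not checked.

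Ltb encodes lymphotoxin beta, which anchors Lta in the membrane of lymphocytes. Its levels were 12.55, 12.54, 12.55, 12.70 and 12.57 with bleomycin and gapmer 1 and 12.57, 12.60, 11.80, 12.54 and 12.63 with bleomycin and gapmer 3. With the control gapmer they were 13.44, 13.59, 13.37, 13.49 and 13.14 in bleomycin mice and 12.68, 12.66 and 12.93 in PBS mice. The control gapmer's bleomycin arrays did not overlap with any other group, and replicate 3 of gapmer 3 was the lowest of all 24 arrays. Ltb differed by 0.65 ± 0.15 (SE) with bleomycin (limma adjusted p = 0.00177), by -0.83 ± 0.13 with gapmer 1 and by -0.98 ± 0.13 with gapmer 3 (limma adjusted p = 0.000338 and 3.68e-05). Without replicate 3 of gapmer 3 the difference with that gapmer was -0.82, still called. The receptor of the lymphotoxin heterotrimer, Ltbr, rose by 0.22 ± 0.07 (SE) with bleomycin (limma adjusted p = 0.0186), a call that was lost without replicate 3 of the bleomycin control gapmer or without replicate 1 or 2 of the PBS control gapmer (differences 0.17 to 0.22, limma adjusted p = 0.0501 to 0.111). Neither gapmer moved Ltbr past the threshold, with -0.02 ± 0.06 and 0.02 ± 0.06 (SE).

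The Ltb promoter is shown as the one among the members changed in all 3 comparisons in which the NF-kB consensus was found, and it was chosen after that search. It lies at chr17:35194257-35194556 on the plus strand of GRCm38.p6, from RefSeq. Capitals mark the letters that match the consensus on the minus strand, at position -87.
Ltb: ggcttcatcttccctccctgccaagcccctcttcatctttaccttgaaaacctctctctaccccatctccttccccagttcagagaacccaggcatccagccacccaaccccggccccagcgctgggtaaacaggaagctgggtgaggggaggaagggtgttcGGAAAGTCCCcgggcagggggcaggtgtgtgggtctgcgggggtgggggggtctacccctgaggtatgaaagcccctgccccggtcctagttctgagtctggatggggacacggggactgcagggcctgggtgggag

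Tnfsf14, LIGHT, a ligand of both Ltbr and the herpesvirus entry mediator Tnfrsf14, was not called with bleomycin (0.12 ± 0.12, SE, limma adjusted p = 0.484). It had 7.77, 7.77, 8.05, 8.24 and 7.71 with bleomycin and gapmer 1 and 7.85, 7.71, 7.33, 7.73 and 7.59 with bleomycin and gapmer 3, against 8.24, 8.40, 8.08, 8.29 and 8.32 with the control gapmer. The gapmer 3 arrays lay under all 5 control arrays, and 2 gapmer 1 arrays came within or next to their range. The differences were -0.36 ± 0.10 with gapmer 1 and -0.62 ± 0.10 with gapmer 3 (SE, limma adjusted p = 0.0293 and 0.000362). The gapmer 1 call was lost without any 1 of 6 arrays, replicates 1, 2 and 5 of gapmer 1 and replicates 1, 2 and 4 of the control gapmer (differences -0.37 to -0.31, limma adjusted p = 0.0507 to 0.0934). Tnfrsf14 lay between 6.53 and 7.27 on all arrays and was called in no comparison.

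The BAFF and APRIL axis, which keeps B cells and plasma cells alive, holds 4 members on the array. Tnfrsf13c, the BAFF receptor of mature B cells, had the largest fall of any member with both gapmers. Its levels were 8.59, 8.89, 9.06, 8.83 and 9.27 with bleomycin and gapmer 1 and 8.88, 9.16, 8.40, 8.92 and 8.89 with bleomycin and gapmer 3. With the control gapmer they were 10.10, 10.44, 10.09, 10.18 and 10.05 in bleomycin mice and 9.46, 9.48 and 9.87 in PBS mice. The gapmer 1 and gapmer 3 arrays lay under every array of the control gapmer, PBS mice included, and PBS mice with gapmers 1 and 3 had between 8.90 and 9.42. Tnfrsf13c differed by -1.24 ± 0.14 (SE) with gapmer 1 and -1.32 ± 0.14 with gapmer 3 (limma adjusted p = 5.9e-06 and 1.81e-06), and by 0.57 ± 0.16 with bleomycin (limma adjusted p = 0.00765). In PBS mice the gapmer differences were -0.49 ± 0.18 with gapmer 1 and -0.32 ± 0.18 with gapmer 3 (SE), neither called. With the mean of its 2 features in place of the brighter one the 3 differences were smaller, 0.37 with bleomycin, -0.79 with gapmer 1 and -0.85 with gapmer 3, and still called.

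Tnfrsf13b encodes TACI, a receptor for BAFF and APRIL on B cells. It measured 10.10, 10.28, 10.36, 10.32 and 10.49 with bleomycin and gapmer 1 and 10.40, 10.22, 9.81, 10.32 and 10.50 with bleomycin and gapmer 3, against 11.03, 11.13, 10.97, 11.12 and 10.77 with the control gapmer in bleomycin mice. The PBS arrays of the control gapmer had 10.21, 10.46 and 10.68. The bleomycin control arrays lay above all others. The differences were -0.69 ± 0.12 with gapmer 1, -0.75 ± 0.12 with gapmer 3 and 0.55 ± 0.13 with bleomycin (SE, limma adjusted p = 0.000592, 0.000155 and 0.00257). Only the brightest of its 3 features was called, and with their mean the differences were -0.32 and -0.37 with the gapmers, both called, and 0.16 with bleomycin, not called (limma adjusted p = 0.153). Tnfrsf17, BCMA, the plasma cell receptor of the axis, was called in no comparison (-0.08 ± 0.14 with bleomycin, SE). Tnfsf13b, the ligand BAFF, spread over more than 1 log2 unit within the gapmer 1 and the control gapmer bleomycin groups and differed by 0.38 ± 0.27 (SE) with bleomycin (limma adjusted p = 0.305). Replicate 5 of the bleomycin control gapmer, at 8.68, lay under the others of that group at 9.62 to 9.98, and without it the difference was 0.60 and called (limma adjusted p = 0.0438).

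Of the RANK ligand axis, known for bone and for lymph node formation, all 3 members rose with bleomycin, where 14.5% of all genes did. Tnfrsf11b, osteoprotegerin, is a secreted decoy receptor of RANK ligand. It had 8.30, 7.83, 8.16, 9.20 and 8.25 with bleomycin and gapmer 1, 8.43, 8.33, 7.67, 8.19 and 8.36 with bleomycin and gapmer 3, and 9.04, 9.29, 8.84, 9.03 and 8.72 with bleomycin and the control gapmer. PBS mice with the control gapmer had 8.21, 8.10 and 8.03. Apart from replicate 4 of gapmer 1, at 9.20, the gapmer 1 and gapmer 3 arrays lay under the bleomycin control arrays. The bleomycin rise was 0.87 ± 0.21 (SE, limma adjusted p = 0.00234), and the gapmer differences were -0.64 ± 0.18 and -0.79 ± 0.18 (SE, limma adjusted p = 0.0254 and 0.00512) with gapmers 1 and 3. The gapmer 1 call was lost without replicate 1, 2 or 3 of gapmer 1 or without replicate 1, 2 or 4 of the control gapmer (differences -0.63 to -0.51, limma adjusted p = 0.0533 to 0.0894), and without replicate 4 of gapmer 1 the difference was -0.85.

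Tnfsf11, RANK ligand itself, measured 6.03, 5.79, 5.90, 6.18 and 6.11 with bleomycin and gapmer 1, 6.06, 5.97, 5.95, 5.86 and 5.91 with bleomycin and gapmer 3 and 6.71, 6.83, 6.60, 6.65 and 6.44 with bleomycin and the control gapmer. PBS mice with the control gapmer had 5.78, 5.86 and 6.04. The bleomycin control arrays stood above all others, and the means of the other 5 groups were under the dim level. Tnfsf11 was thus at least 1.45-fold higher with bleomycin, and at least 1.45-fold lower with each gapmer than with the control gapmer (measured differences 0.75, -0.64 and -0.70, limma adjusted p = 9.15e-07, 1.29e-05 and 2.74e-06). Its receptor RANK, Tnfrsf11a, had 10.58, 10.01, 9.91, 10.62 and 10.53 with bleomycin and gapmer 1 and 10.52, 10.26, 10.23, 10.57 and 10.53 with bleomycin and gapmer 3. With the control gapmer Tnfrsf11a had 10.91, 10.71, 10.71, 10.83 and 9.87 in bleomycin mice and 9.51, 9.48 and 9.67 in PBS mice. The groups of bleomycin mice overlapped, and the low value of replicate 5 of the control gapmer stood apart. Tnfrsf11a rose by 1.05 ± 0.19 (SE) with bleomycin (limma adjusted p = 0.000185) and was called with neither gapmer (-0.28 ± 0.17 and -0.18 ± 0.17, SE), but without that array the gapmer 1 difference was -0.46 and called (limma adjusted p = 0.0239).

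Tnf itself, the inflammatory cytokine made largely by macrophages and T cells, rose with bleomycin under every gapmer. It had 7.39, 7.24, 7.17, 7.41 and 7.53 with bleomycin and gapmer 1, 7.55, 7.81, 7.36, 7.53 and 7.43 with bleomycin and gapmer 3 and 7.88, 7.87, 7.55, 7.94 and 7.66 with bleomycin and the control gapmer. In PBS mice it had 7.07, 6.68 and 6.53 with gapmer 1, 6.44, 6.98 and 6.81 with gapmer 3 and 6.60, 7.09 and 6.71 with the control gapmer. All 15 bleomycin arrays lay above all 9 PBS arrays. The bleomycin difference was 0.59 ± 0.14 with gapmer 1, 0.80 ± 0.14 with gapmer 3 and 0.98 ± 0.14 with the control gapmer (SE, limma adjusted p = 0.0111, 0.000561 and 1.47e-05). Within bleomycin mice Tnf was lower by 0.43 ± 0.12 (SE) with gapmer 1 (limma adjusted p = 0.027) and differed by -0.25 ± 0.12 (SE) with gapmer 3, which was not called (limma adjusted p = 0.221). The gapmer 1 call was lost without replicate 2 or 3 of gapmer 1 or replicate 1, 2 or 4 of the control gapmer (differences -0.41 to -0.39, limma adjusted p = 0.0661 to 0.081). With the mean of the 10 Tnf features the gapmer 3 difference was -0.35 and called (limma adjusted p = 0.0417).

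Tnf has 2 receptors. Tnfrsf1b, TNF receptor 2, which is found on lymphocytes, myeloid cells and endothelium, measured 9.76, 9.59, 9.72, 10.0 and 10.24 with bleomycin and gapmer 1, 9.98, 9.82, 9.50, 9.94 and 9.76 with bleomycin and gapmer 3 and 9.96, 9.99, 10.05, 9.96 and 9.98 with bleomycin and the control gapmer. PBS mice with the control gapmer had 9.15, 9.04 and 9.36. It rose by 0.81 ± 0.12 (SE, limma adjusted p = 2.52e-05) and was called with neither gapmer in bleomycin mice (-0.13 ± 0.11 and -0.19 ± 0.11, SE). Tnfrsf1a, TNF receptor 1, the widely expressed receptor with a death domain, lay between 12.67 and 13.22 on all 24 arrays and differed by 0.04 ± 0.09 (SE) with bleomycin (interval -0.16 to 0.23). The difference between these 2 genes was not tested. One of the 11 features of Tnfrsf1a, at a mean of 11.89, was called, with 0.33 for bleomycin, -0.20 for gapmer 1 and -0.28 for gapmer 3. The other 10, at means of 12.81 to 12.97, were not. Whether those 10 carry different probes was not checked.

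Tnfrsf12a, the inducible receptor of TWEAK on fibroblasts, epithelium and endothelium (Fn14), had 12.97, 12.36, 12.34, 13.37 and 12.47 with bleomycin and gapmer 1, 12.91, 12.60, 12.20, 12.51 and 12.39 with bleomycin and gapmer 3 and 13.0, 13.13, 12.91, 13.15 and 12.67 with bleomycin and the control gapmer. PBS mice had 11.80, 11.75 and 11.69 with gapmer 1, 12.08, 11.78 and 11.56 with gapmer 3 and 11.96, 11.58 and 11.32 with the control gapmer. Every bleomycin array lay above every PBS array, and within bleomycin mice the groups overlapped. The bleomycin rise was 0.95 ± 0.20 with gapmer 1, 0.71 ± 0.20 with gapmer 3 and 1.35 ± 0.20 with the control gapmer (SE, limma adjusted p = 0.00445, 0.0214 and 2.35e-05). The gapmer differences were -0.27 ± 0.18 and -0.45 ± 0.18 (SE), not called, although without replicate 4 of gapmer 1 the gapmer 3 difference passed (limma adjusted p = 0.0447). The gapmer 3 difference of Tnfrsf12a was also called with array weights (-0.53), only the groups compared, or a block on replicate number (limma adjusted p = 0.00562, 0.0413 and 0.0199). Its ligand TWEAK, Tnfsf12, had 9.89, 9.90, 9.76, 9.72 and 9.84 with bleomycin and gapmer 1, 9.82, 9.70, 9.96, 9.83 and 9.93 with bleomycin and gapmer 3 and 9.79, 9.56, 9.78, 9.76 and 9.87 with bleomycin and the control gapmer, against 9.77, 10.07 and 10.04 in PBS mice with the control gapmer. The groups overlapped. Tnfsf12 fell by 0.21 ± 0.08 (SE) with bleomycin (limma adjusted p = 0.0471), and that call was lost when any 1 of 17 of the 24 arrays was left out (differences -0.22 to -0.15).

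Death ligands, death receptors and decoys make up 10 members, of which 4 rose and 4 fell with bleomycin and the control gapmer, where 14.5% of all genes rose and 19.3% fell. With each gapmer in bleomycin mice 2 of the 10 fell, against 5.08% and 7.52% of all genes, and with gapmer 3 Tnfsf10 rose. Tnfsf10, TRAIL, a ligand that can start caspase-driven death in damaged cells, had 11.31, 11.50, 11.59, 10.93 and 11.77 with bleomycin and gapmer 1, 11.45, 11.49, 11.25, 11.64 and 11.65 with bleomycin and gapmer 3 and 10.94, 10.88, 11.27, 10.84 and 11.32 with bleomycin and the control gapmer. PBS mice had 11.99, 12.11 and 11.98 with gapmer 1, 11.59, 11.98 and 11.91 with gapmer 3 and 12.05, 11.88 and 12.53 with the control gapmer. The bleomycin control arrays were the lowest group, all under every PBS array. Tnfsf10 fell by 1.10 ± 0.17 (SE) with bleomycin (limma adjusted p = 2.16e-05) and was higher than with the control gapmer by 0.45 ± 0.14 (SE) with gapmer 3 (limma adjusted p = 0.042). The gapmer 1 difference of 0.37 ± 0.14 (SE) was not called (limma adjusted p = 0.107), and without replicate 4 of gapmer 1 it was 0.49 and called. The gapmer 3 call was lost without any 1 of 7 arrays, replicates 1, 2, 4 and 5 of gapmer 3 and replicates 1, 2 and 4 of the control gapmer (differences 0.40 to 0.46, limma adjusted p = 0.0581 to 0.114).

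Tnfrsf10b, the death receptor for TRAIL in mice, had 9.61, 9.53, 9.66, 10.08 and 9.71 with bleomycin and gapmer 1, 9.73, 9.68, 9.74, 9.55 and 9.72 with bleomycin and gapmer 3 and 9.88, 10.09, 10.04, 10.08 and 9.96 with bleomycin and the control gapmer, against 9.43, 9.26 and 9.25 in PBS mice with the control gapmer. Bleomycin and PBS arrays did not overlap with any gapmer. It rose by 0.72 ± 0.10 with gapmer 1, 0.60 ± 0.10 with gapmer 3 and 0.70 ± 0.10 with the control gapmer (SE, limma adjusted p = 0.000131, 0.000406 and 1.88e-05). It was lower than with the control gapmer by 0.29 ± 0.09 (SE) with gapmer 1 and 0.33 ± 0.09 (SE) with gapmer 3 (limma adjusted p = 0.0391 and 0.0172). The gapmer 1 call was lost without any 1 of 7 arrays, replicates 1, 2, 3 and 5 of gapmer 1 and replicates 2, 3 and 4 of the control gapmer (limma adjusted p = 0.0606 to 0.121), and the gapmer 3 call without replicate 4 of gapmer 3 or replicate 2 of the control gapmer (limma adjusted p = 0.0506 and 0.0509).

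The mouse decoy receptors Tnfrsf22, Tnfrsf23 and Tnfrsf26 lie side by side on chromosome 7. Tnfrsf23 had 9.51, 9.27, 9.43, 9.68 and 9.31 with bleomycin and gapmer 1, 9.49, 9.39, 9.34, 9.24 and 9.21 with bleomycin and gapmer 3 and 9.62, 9.80, 9.66, 9.74 and 9.69 with bleomycin and the control gapmer. PBS mice had between 8.43 and 8.92 with all 3 gapmers, under every bleomycin array. Tnfrsf23 rose by 1.02 ± 0.09 (SE, limma adjusted p = 3.29e-08), and the gapmer differences in bleomycin mice were -0.26 ± 0.08 and -0.37 ± 0.08 (SE, limma adjusted p = 0.031 and 0.00246). The gapmer 1 call was lost without replicate 2, 3 or 5 of gapmer 1 or replicate 2 or 4 of the control gapmer (limma adjusted p = 0.0674 to 0.102), and with the mean of its 2 features the gapmer 3 difference was -0.17 and not called (limma adjusted p = 0.0507), while the bleomycin difference was 0.63. Tnfrsf26 rose by 0.49 ± 0.09 (SE, limma adjusted p = 0.000135) and Tnfrsf22, at 0.26 ± 0.13 (SE), was not called, and neither was called with a gapmer in bleomycin mice.

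Fas, the death receptor bound by Fas ligand, had 11.58, 11.79, 12.17, 11.76 and 12.04 with bleomycin and gapmer 1, 12.05, 11.70, 12.48, 11.79 and 11.70 with bleomycin and gapmer 3 and 11.97, 11.95, 11.99, 11.85 and 12.03 with bleomycin and the control gapmer. PBS mice had 11.79, 11.65 and 11.69 with gapmer 1, 11.86, 12.05 and 11.97 with gapmer 3 and 12.18, 12.02 and 12.28 with the control gapmer. The groups overlapped, and the differences were -0.20 ± 0.14 with bleomycin, -0.09 ± 0.12 with gapmer 1 and -0.01 ± 0.12 with gapmer 3 (SE), none called (limma adjusted p = 0.305, 0.747 and 0.966). Fasl, the ligand carried by cytotoxic lymphocytes, had 6.76, 6.61, 6.65, 6.67 and 6.90 with bleomycin and gapmer 1, 6.78, 6.57, 6.56, 6.79 and 6.78 with bleomycin and gapmer 3 and 6.70, 6.71, 6.60, 6.65 and 6.67 with bleomycin and the control gapmer, against 6.95, 6.96 and 7.02 in PBS mice with the control gapmer. All bleomycin arrays lay under the PBS arrays of the control gapmer. Fasl fell by 0.31 ± 0.07 (SE) with bleomycin (limma adjusted p = 0.000908) and differed by 0.05 ± 0.06 and 0.03 ± 0.06 (SE) with gapmers 1 and 3, neither called. Of 12 NK and cytotoxic cell markers, 8 were also lower with bleomycin and 1 was higher, where 19.3% of all genes were lower and 14.5% higher. Gzma differed by -1.42 and Ncr1 by -0.76. The mean log2 difference of the list from the PBS control mean was -0.62 to -0.28 per bleomycin control array, against -0.10 to 0.10 in PBS control mice. Of the 12 markers, 1 lay under the dim level. The part of these cells in the fall of Fasl was not tested.

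Tnfsf15, the ligand TL1A made by endothelium and myeloid cells, and Tnfrsf25 (DR3), its death-domain receptor on T cells, both fell with bleomycin. Tnfsf15 had 9.14, 9.30, 9.29, 8.73 and 8.87 with bleomycin and gapmer 1, 9.26, 9.21, 9.14, 9.15 and 9.11 with bleomycin and gapmer 3 and 8.86, 8.78, 9.47, 8.83 and 9.12 with bleomycin and the control gapmer, against 9.58, 9.16 and 9.43 in PBS mice with the control gapmer. Replicate 3 of the bleomycin control gapmer lay within the PBS range. The difference of -0.38 ± 0.14 (SE, limma adjusted p = 0.0434) was not called when any 1 of 9 arrays was left out (differences -0.38 to -0.28, limma adjusted p = 0.050 to 0.203), namely replicates 2 and 4 of gapmer 3 and 1, 2 and 4 of the control gapmer in bleomycin mice, and replicates 2 and 3 of gapmer 1 and 1 and 3 of the control gapmer in PBS mice. With the RNA integrity number of the labels as a covariate it was -0.23 (limma adjusted p = 0.138). Markers of endothelium were lower with bleomycin in 10 of 11 genes, where 19.3% of all genes were lower. Their mean difference was -0.78 to -0.55 per bleomycin control array, against -0.17 to 0.11 in PBS control mice, and none lay under the dim level. The part of endothelium in the level of Tnfsf15 was not tested.

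Tnfrsf25 had 10.34, 10.34, 10.33, 10.02 and 10.05 with bleomycin and gapmer 1, 10.15, 10.23, 10.59, 10.06 and 10.05 with bleomycin and gapmer 3 and 10.13, 10.28, 10.10, 10.23 and 10.07 with bleomycin and the control gapmer. In PBS mice it had 9.86, 9.91 and 10.35 with gapmer 1, 10.39, 10.36 and 10.27 with gapmer 3 and 10.95, 10.35 and 10.67 with the control gapmer. The PBS control arrays lay above the 5 bleomycin control arrays. It fell by 0.49 ± 0.14 (SE) with bleomycin (limma adjusted p = 0.00719), a call lost without replicate 1 of the PBS control gapmer (difference -0.34, limma adjusted p = 0.0818). Tnfrsf21 (DR6), a death-domain receptor of many tissues, rose by 0.25 ± 0.08 (SE, limma adjusted p = 0.0161), and without replicate 3 of the PBS control gapmer the difference was 0.16 and not called. The last receptor, Tnfrsf19 (TROY), known from epithelium and progenitor cells, had 10.26, 10.30, 10.36, 10.22 and 10.44 with bleomycin and the control gapmer, against 10.83, 10.78 and 10.74 in PBS mice. It fell by 0.47 ± 0.09 (SE) with bleomycin (limma adjusted p = 0.000309), its groups did not overlap, and with gapmers 1 and 3 it differed by 0.21 ± 0.08 and 0.16 ± 0.08 (SE), neither called. Without replicate 4 of gapmer 1 the gapmer 1 difference was 0.26 and called (limma adjusted p = 0.024).

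Several members that rose with bleomycin and were lower with the gapmers are made by lymphocytes, and markers of those cells moved in the same comparisons. Over all genes 5.08% were lower with gapmer 1, 7.52% were lower with gapmer 3 and 14.5% were higher with bleomycin. Of 13 T cell markers, 10 were lower with each gapmer in bleomycin mice and 0 higher, with medians of -0.87 for gapmer 1 and -0.97 for gapmer 3, and 11 were higher with bleomycin under the control gapmer, median 0.97. Il2ra, the interleukin 2 receptor of activated and regulatory T cells, differed by -1.21 with gapmer 1, -1.38 with gapmer 3 and 1.74 with bleomycin, and Foxp3, the factor that defines regulatory T cells, by 1.38 with bleomycin. The T cell score, the mean over the markers of the log2 difference from the PBS control mean, was 0.06 to 0.37 with bleomycin and gapmer 1, -0.06 to 0.18 with bleomycin and gapmer 3, 0.63 to 1.28 with bleomycin and the control gapmer and -0.09 to 0.18 in PBS control mice. No T cell marker lay under the dim level. Of 10 B and plasma cell markers, 8 were lower with each gapmer and 7 higher with bleomycin, and the score was -0.19 to -0.01 with gapmer 1, -0.55 to 0.07 with gapmer 3 and 0.37 to 0.77 with the control gapmer in bleomycin mice, against -0.12 to 0.06 in PBS control mice. The part of these cells in the differences of Tnfrsf4, Tnfrsf18, Tnfsf8, Lta, Ltb, Tnfrsf13b, Tnfrsf13c and the other members was not tested. All 15 markers of monocyte-derived macrophages measured were higher with bleomycin, median 1.40, and 4 fell with gapmer 1 and 5 with gapmer 3, where 1 rose. Their part was not tested either.

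Markers of epithelium and neutrophils moved in the same comparisons. Over all genes, 5.47% were higher and 5.08% lower with gapmer 1, and 5.63% higher and 7.52% lower with gapmer 3. With bleomycin 14.5% were higher and 19.3% lower. Of 12 genes of squamous and damage-associated epithelium, 4 were lower with gapmer 1 and 7 with gapmer 3, medians -0.71 and -1.18, and 9 were higher with bleomycin, median 2.67, with 0 called the other way and 1 under the dim level. Sprr2f, a cornified envelope gene, differed by -4.47 with gapmer 1, -4.46 with gapmer 3 and 4.37 with bleomycin. The score of this list was 1.41 to 1.68 with gapmer 1, 0.07 to 1.40 with gapmer 3 and 2.14 to 2.82 with the control gapmer in bleomycin mice, against 1.43 to 1.85 with gapmer 1, -0.64 to 1.69 with gapmer 3 and -0.75 to 0.54 with the control gapmer in PBS mice. Of 9 alveolar type 1 markers, 7 were higher with each gapmer and 8 lower and 1 higher with bleomycin, and the score was -0.46 to 0.02 with gapmer 1, -0.20 to -0.08 with gapmer 3 and -0.80 to -0.38 with the control gapmer, against -0.12 to 0.07 in PBS control mice. Of 9 alveolar type 2 markers, 6 were higher with each gapmer and 4 lower with bleomycin, with scores of -0.27 to 0.18, 0.03 to 0.13 and -0.54 to -0.21 in the same order, against -0.16 to 0.08 in PBS control mice. Of 9 neutrophil markers, 4 were lower with each gapmer, and with bleomycin 2 were higher and 3 lower. Their scores were -0.67 to -0.14 with gapmer 1, -0.73 to -0.42 with gapmer 3 and -0.23 to -0.11 with the control gapmer, against -0.07 to 0.08 in PBS control mice. No gene of these last 3 lists lay under the dim level. Their part in the members' differences, those of Tnfrsf12a, Tnfrsf11b and Tnfrsf19 included, was not tested.

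Replicate 3 of the bleomycin control gapmer had a thymus score of 1.82, where the other 4 arrays of its group had 0.02 to 0.07, and 3 of the 8 thymus genes lay under the dim level on average. Its T cell score, 1.28, was the highest, while Tnfrsf4 had 10.73 there and Lta 7.71, each above replicate 5 alone in its group. Without this array 23 members were called with bleomycin, 18 higher and 5 lower, 13 were lower with gapmer 1 and 0 higher, and 13 were lower and 1 higher with gapmer 3. Without replicate 4 of gapmer 1 the counts with that gapmer were 14 lower and 2 higher, the 2 being Tnfsf10 and Tnfrsf19. Scores of 2 other tissues differed between the control gapmer groups and varied in the other groups. The adipose score was -1.75 to -1.22 in bleomycin control arrays, against -0.34 to 0.37 in PBS control arrays. PBS mice with gapmers 1 and 3 had adipose scores of -1.14 to -0.25 and -1.56 to -0.36. The skeletal muscle score was -1.95 to -1.78 in bleomycin control arrays, against -0.45 to 0.68 in PBS control arrays. It ran from -4.14 to 0.69 in bleomycin mice with gapmer 3. In PBS mice with gapmer 3 it ran from -5.36, in replicate 2, to 0.57. With bleomycin 6 of 7 adipose and 2 of 10 muscle genes were called lower and 0 higher. Of all genes 19.3% were lower and 14.5% higher, so the muscle count is near that share. Their part in the members' differences was not tested.

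**Figure D3:**
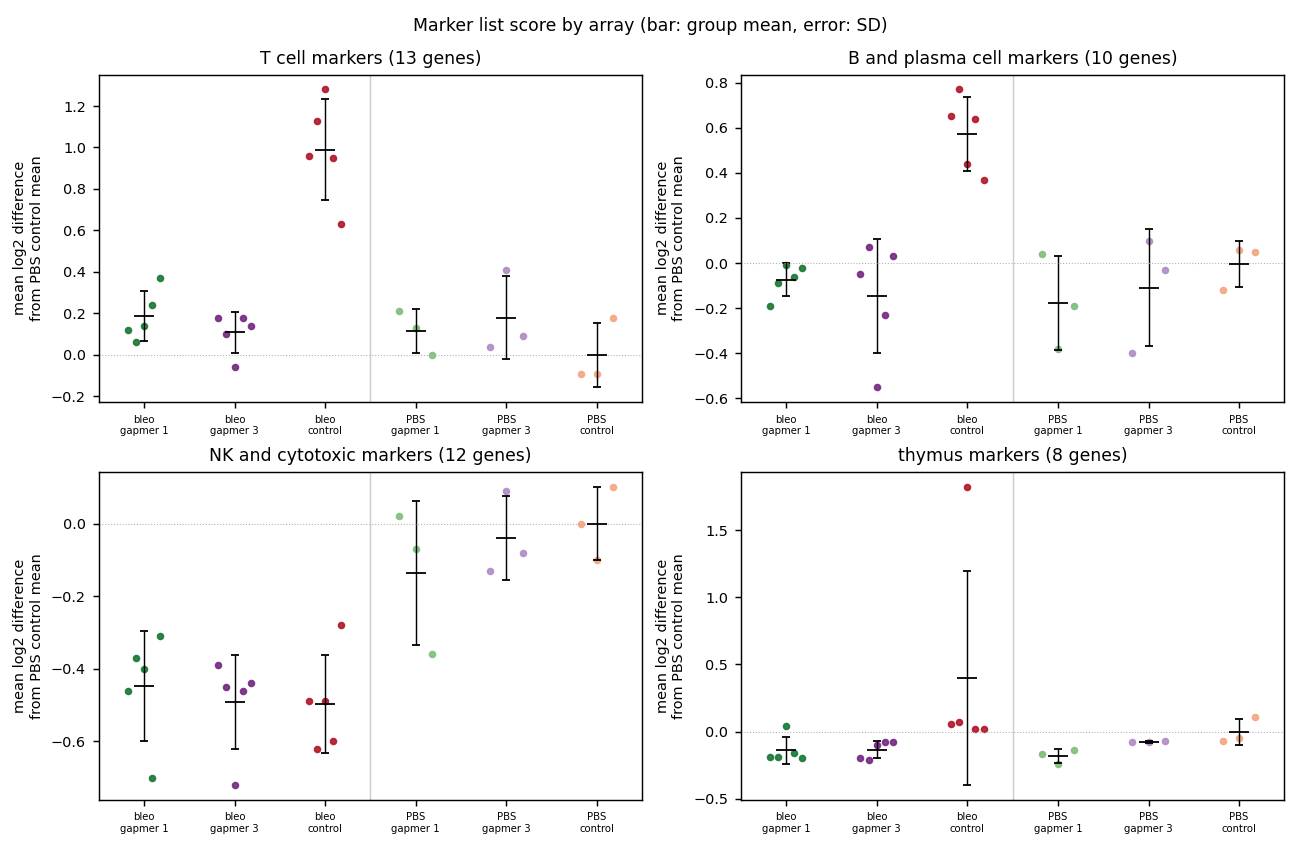
Scores of 4 marker lists on each array, as the mean log2 difference of the list's genes from the PBS control mean; bars are group means and error bars SDs. T cell scores are 0.63 to 1.28 in bleomycin mice with the control gapmer and at most 0.37 with gapmers 1 and 3, NK scores are low in all bleomycin groups, and 1 control array stands out at 1.82 for thymus genes.

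The bleomycin response was then compared between gapmers. With gapmer 1, 9 members were called between bleomycin and PBS mice, 6 higher and 3 lower (9.48% of all genes, 6.35% higher and 3.13% lower), and with gapmer 3, 11 members, 10 higher and 1 lower (13.9% of all genes, 7.02% higher and 6.85% lower). Tnf, Tnfrsf10b, Tnfrsf12a, Tnfrsf1b, Tnfrsf21 and Tnfrsf23 rose with both gapmers, and Tnfrsf19 fell with both. Several of these calls lie near the threshold and were lost without 1 array: with gapmer 1, Tnf without PBS replicate 2 or 3 (0.47 to 0.55), Tnfrsf21 without PBS replicate 2 (0.25), Tnfrsf1b without any 1 of 4 arrays, Tnfrsf19 of 3, and Tnfsf10 and Tnfsf15 of 5 each. With gapmer 3, Tnfrsf12a and Tnfrsf19 were lost without any 1 of 3 and 2 arrays, Tnfrsf26 without PBS replicate 2 (0.22) and Tnfrsf11a without any 1 of 9. Without replicate 4 of bleomycin with gapmer 1, 5 members were called with that gapmer. With the mean of its 2 features Tnfrsf19 lost both calls, with -0.18 for gapmer 1 and -0.20 for gapmer 3 (limma adjusted p = 0.174 and 0.0896). The counts ran from 3 to 12 members with gapmer 1 and from 7 to 13 with gapmer 3 as each array was left out in turn. The test of the change itself, the bleomycin difference with a gapmer minus that with the control gapmer, called 9 members for gapmer 1, 8 lower and 1 higher, where 7.7% of all genes were called, 2.74% lower and 4.97% higher. For gapmer 3 it called 5 members, all lower, where 3.09% of all genes were called, 1.64% lower and 1.45% higher. Both tests use the same control arrays. Tnfsf8 rose by 1.13 with the control gapmer but differed by 0.08 ± 0.10 with gapmer 1 and 0.18 ± 0.10 with gapmer 3 (SE), a change of -1.04 ± 0.14 and -0.95 ± 0.14 (SE, limma adjusted p = 0.000154 and 0.00058). Tnfrsf18 still differed by 0.42 ± 0.14 and 0.42 ± 0.14 (SE) with gapmers 1 and 3, not called, and its response changed by -0.95 ± 0.20 and -0.95 ± 0.20 (SE, limma adjusted p = 0.00803 and 0.0128).

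For Tnfsf11 the change was -0.58 ± 0.12 with gapmer 1 and -0.69 ± 0.12 with gapmer 3 (SE, limma adjusted p = 0.00865 and 0.00416), with the dim level as floor in all groups but 1. For Tnfrsf13c it was -0.76 ± 0.22 and -1.0 ± 0.22 (SE, limma adjusted p = 0.0415 and 0.0193). Tnfrsf4 changed by -1.15 ± 0.30 with gapmer 1 (limma adjusted p = 0.0231), and for gapmer 3 its value was -0.91 ± 0.30 (SE, limma adjusted p = 0.0935). Its rise with bleomycin was still called with gapmer 3, at 0.87 ± 0.21 (SE), and not with gapmer 1, at 0.62 ± 0.21. With gapmer 1 Lta changed by -1.19 ± 0.24 (SE, limma adjusted p = 0.00701), and it had -0.83 ± 0.24 with gapmer 3 (limma adjusted p = 0.0604). Ltb had -0.64 ± 0.21 with gapmer 1 (limma adjusted p = 0.0646) and changed by -0.82 ± 0.21 with gapmer 3 (SE, limma adjusted p = 0.036). For gapmer 3, Lta, Tnfrsf4 and Tnfsf18 were called without replicate 4 of bleomycin with gapmer 1 or replicate 5 of the bleomycin control gapmer, among others (Lta -0.98 to -0.83, Tnfrsf4 -1.02 to -0.91, Tnfsf18 -1.23 to -1.14). Without replicate 4 of bleomycin with gapmer 1, the test for gapmer 3 called 9 members, now with Tnfsf10 (0.77), Tnfsf18 (-1.14), Lta (-0.83) and Tnfrsf4 (-0.91) as well (limma adjusted p = 0.033, 0.00243, 0.0466 and 0.044). Without the same array the gapmer 1 changes of Tnfrsf11b (-0.76), Tnfrsf23 (-0.37) and Ltb (-0.67) were called (limma adjusted p = 0.0232, 0.0408 and 0.0497). A call for 1 gapmer and not for the other does not show that they differ.

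The remaining called changes were all for gapmer 1: Tnfsf18 at -1.06, Tnfrsf13b at -0.65 and, in the other direction, Tnfrsf25 at 0.67 (limma adjusted p = 0.0419, 0.0375 and 0.0359). Tnfsf18 lay under the dim level in both PBS groups of this test, so its change is a measured difference with a floor and not an exact fold. These 3 lie near the threshold: they were lost without any 1 of 17, 10 and 9 arrays, and the gapmer 1 change of Tnfrsf13c without any 1 of 13. With the mean of a gene's features the gapmer 1 change of Tnfrsf13b was -0.22 and not called (limma adjusted p = 0.276), and those of Tnfrsf13c were -0.43 with gapmer 1 and -0.66 with gapmer 3, both called. Tnfrsf4 lost its gapmer 1 call without replicate 1 of the gapmer 1 or of the control PBS group (limma adjusted p = 0.0655 and 0.0542), and Tnfrsf13c its gapmer 3 call without replicate 1 of the PBS control gapmer (-0.93, limma adjusted p = 0.0625). Ltb lost its gapmer 3 call without any 1 of 7 arrays (limma adjusted p = 0.0601 to 0.0926). The changes of Tnfsf8, Tnfrsf18 and Tnfsf11 were called with both gapmers whichever array was left out, as was that of Lta with gapmer 1. Tnf had a change of -0.40 ± 0.20 with gapmer 1 and -0.19 ± 0.20 with gapmer 3 (SE), Fas 0.36 ± 0.20 and 0.19 ± 0.20, and Fasl 0.20 ± 0.10 and 0.11 ± 0.10, none called.

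**Figure D4:**
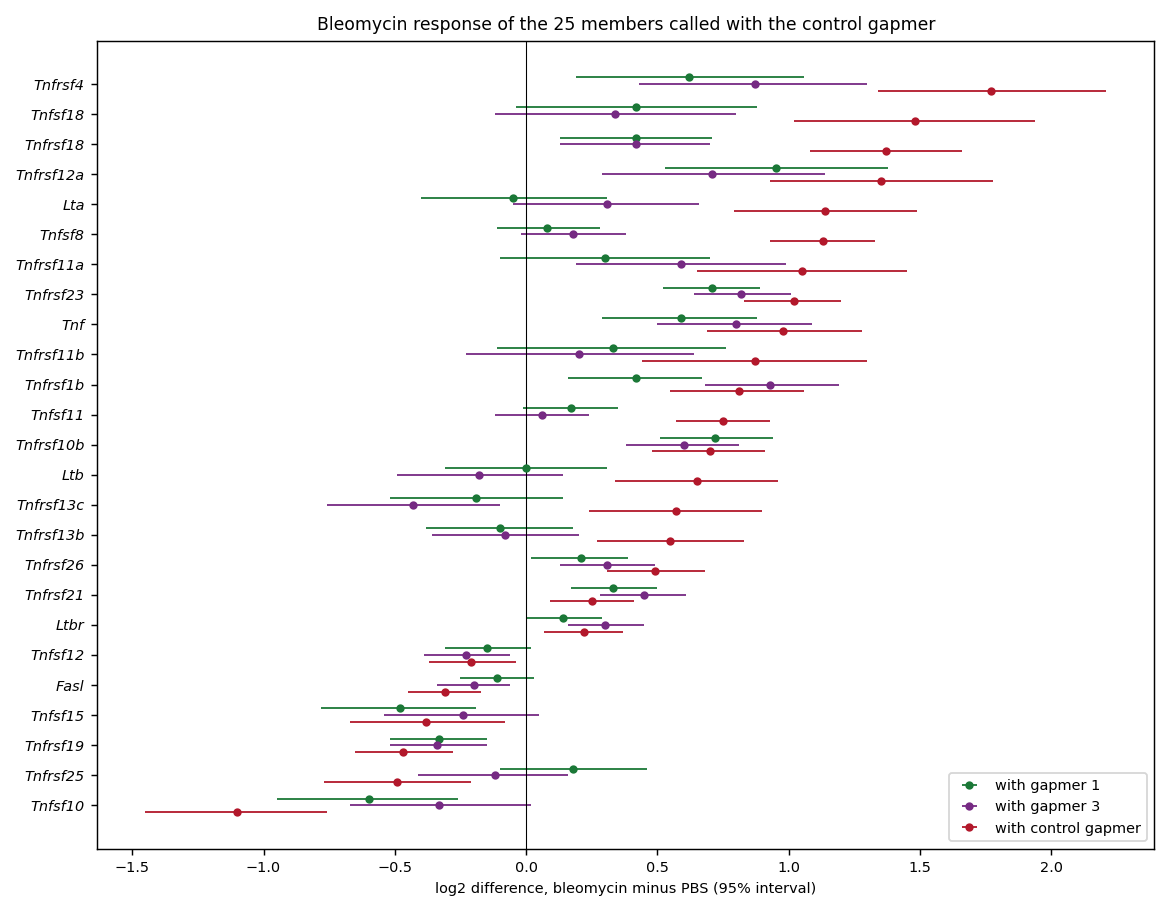
Log2 difference between bleomycin and PBS mice with 95% intervals for the 25 members called with the control gapmer, shown with gapmer 1 (green), gapmer 3 (purple) and the control gapmer (red). The green and purple points of Tnfsf8, Lta, Ltb, Tnfsf11, Tnfrsf13b and Tnfrsf13c lie between -0.43 and 0.31 and are not called, while those of Tnf, Tnfrsf10b, Tnfrsf23, Tnfrsf12a and Tnfrsf21 are called higher with both gapmers.

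In PBS mice the gapmers alone gave few calls. With gapmer 1, Tnfrsf25 was lower than with the control gapmer by 0.62 ± 0.15 (SE), limma adjusted p = 0.0486, the 1 call among 37 members where 1.11% of all genes were called, 0.444% higher and 0.666% lower, and it was lost without any 1 of 16 arrays. With gapmer 3, 0 members were called by limma, 2 had an unadjusted p under 0.05, and 0.0338% of all genes were called, 0.00965% higher and 0.0241% lower. The differences of the members ran from -0.62 to 0.48 with gapmer 1 and from -0.56 to 0.29 with gapmer 3, with intervals from -0.93 to 1.02 and from -0.90 to 0.91, so changes of up to about 1 log2 unit in single members are within the intervals. Tnf differed by -0.04 ± 0.16 and -0.06 ± 0.16 (SE), Fas by -0.45 ± 0.16 and -0.20 ± 0.16, and Fasl by -0.15 ± 0.08 and -0.08 ± 0.08, with gapmers 1 and 3. Between gapmer 3 and gapmer 1 in bleomycin mice 0 members and 0.0% of all genes were called by limma, 1 member had an unadjusted p under 0.05, and the members' differences ran from -0.27, for Tnfsf14, to 0.19, for Tnf, with intervals from -0.55 to 0.61.

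Features of the same gene did not always give the same picture, and the plot of all features sets them side by side. All 10 features of Tnf and all 10 of Lta gave the same direction in the 3 comparisons. Their means were close, 7.10 to 7.26 for Tnf and 6.95 to 7.02 for Lta. Whether they carry different probes was not checked, so they may be repeats of 1 probe. For Tnfrsf23 the brighter feature, mean 9.17, differed by 1.02 with bleomycin and the dimmer, mean 5.97, by 0.24. For Tnfrsf13c the dimmer feature, mean 6.18, differed by -0.34 with gapmer 1 and -0.38 with gapmer 3, both called. The largest disagreement was that of Tnfrsf9, described above.

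**Figure D5:**
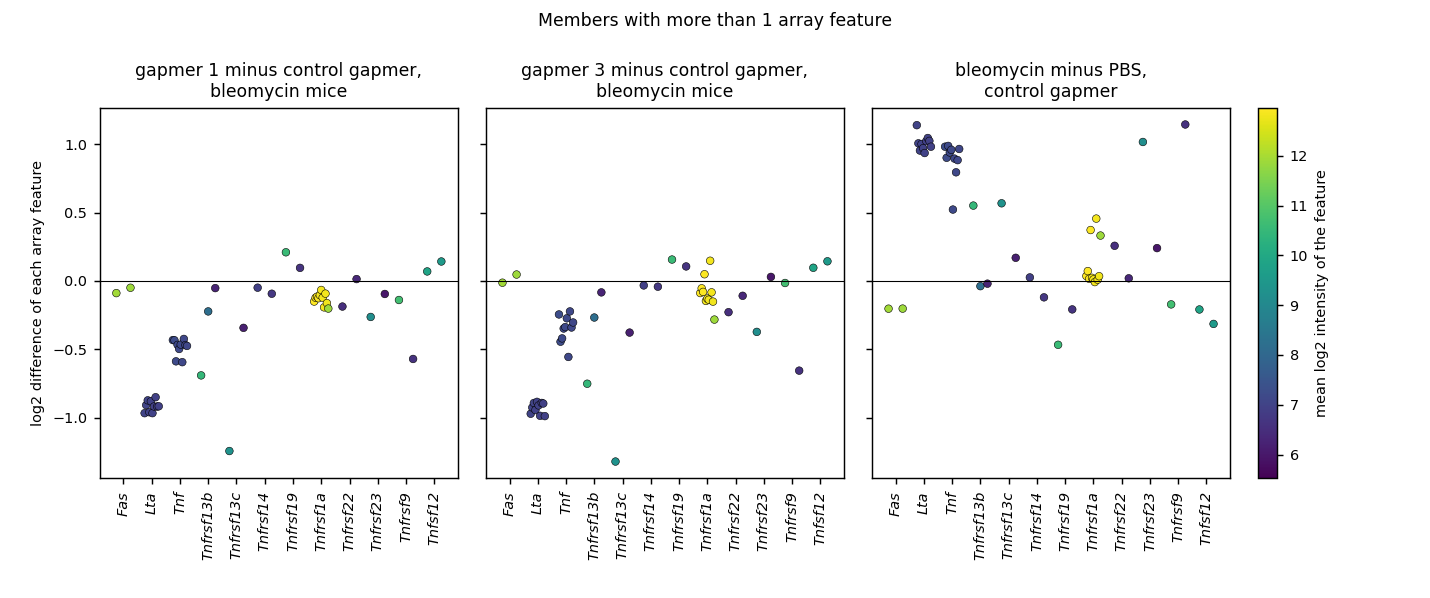
Log2 difference of every array feature of the 12 members with more than 1 feature, in bleomycin mice with gapmer 1 (left) and gapmer 3 (middle) against the control gapmer, and with bleomycin against PBS (right); colour is the feature's mean log2 intensity. The 10 features each of Lta and Tnf cluster, while Tnfrsf9 has 1 feature at 1.15 and 1 at -0.17 with bleomycin.

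Genes that act with the superfamily were followed as well. Of 19 NF-kB subunits, kinases and inhibitors, 7 were lower and 0 higher with gapmer 1, 9 lower and 0 higher with gapmer 3, and 11 were higher and 1 lower with bleomycin, with medians of -0.19, -0.19 and 0.27. Shares of all genes were 5.08% lower with gapmer 1, 7.52% lower with gapmer 3, and 14.5% higher and 19.3% lower with bleomycin. The subunit Nfkb2, through which lymphotoxin, BAFF and RANK receptors signal, differed by -0.39 with gapmer 1, -0.50 with gapmer 3 and 0.92 with bleomycin, and its partner Relb by -0.39 and -0.43 with gapmers 1 and 3. The inhibitor Nfkbie differed by -0.51, -0.63 and 1.11 in the same order, and Tnfaip3, the deubiquitinating brake on TNF signalling (A20), by -0.44 with gapmer 1, all called. The co-activator Bcl3 and the inhibitor Tnip3 rose with bleomycin by 1.43 and 1.36. One gene of this list lay under the dim level.

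Of 20 receptor adaptors and death-signalling genes, 1 was higher and 2 lower with gapmer 1, 0 higher and 5 lower with gapmer 3, and 8 were higher and 1 lower with bleomycin. The shares of all genes called were 10.5%, 13.2% and 33.8% in the same order, so the gapmer 1 count is near the background, and the medians were -0.09, -0.08 and 0.14. With bleomycin Ripk3, the kinase of necroptosis, rose by 0.92, its target Mlkl by 0.44, the caspase Casp8 by 0.64 and the ubiquitin ligase Birc3 by 0.73. With gapmer 3 these 4 differed by -0.46, -0.38, -0.36 and -0.48, and Birc3 by -0.51 with gapmer 1, all called. Of 20 TNF-induced genes, 7 were lower and 0 higher with gapmer 1, 5 lower and 1 higher with gapmer 3, and 11 were higher and 2 lower with bleomycin. The medians of this list were -0.02 with gapmer 1, -0.13 with gapmer 3 and 0.35 with bleomycin, and 3 of the 20 lay under the dim level. The genes named next have the largest called differences of the list with bleomycin and do not stand for all of it. Ccl2, which draws monocytes, differed by -1.45 with each gapmer and 3.06 with bleomycin, Il6 by -1.33 with gapmer 1, -1.65 with gapmer 3 and 2.43 with bleomycin, and Cxcl10 by -1.0, -1.25 and 2.30. Lcn2 rose by 1.48 with bleomycin. Of 8 genes for processing and shedding of TNF family proteins, 0 were called with a gapmer in bleomycin mice, and with bleomycin Rhbdf2 and Furin rose, by 0.30 and 0.29, and Rhbdf1 fell by 0.29, a count of 3 of 8 that is near the 33.8% of all genes.

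Of 9 superfamily genes whose symbols lie outside the naming rule, 5 were higher and 1 lower with bleomycin, median 0.38, and 4 were lower with each gapmer in bleomycin mice, where 1 was higher with gapmer 1. Shares of all genes called were 33.8% with bleomycin, 10.5% with gapmer 1 and 13.2% with gapmer 3. Ngfr, the low-affinity neurotrophin receptor, differed by -0.89 with gapmer 1, -1.08 with gapmer 3 and 1.38 with bleomycin. Relt differed by -0.48, -0.57 and 0.77, and Cd70, the ligand of the T cell receptor Cd27, by -0.40, -0.45 and 0.66, in the same order. Cd27 was lower by 0.45 with each gapmer. Eda, ectodysplasin, a ligand of skin and gland development, fell by 0.75 with bleomycin. Of these 9 genes 4 lay under the dim level on average.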

How the data were processed

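The deposited values are log2 intensities of 62976 features on 24 one-colour arrays, already normalized by the authors: array medians lay between 6.485 and 6.495, and limma is named per the submitters' processing notes without a version. How background was corrected and features filtered is not given in the sources used here, nor is an array batch. Of the features, 31465 carried 1 gene symbol and 31511 none. The files gave 20774 symbols. Matching to RefSeq left 18550 as they were, renamed 2003 through an accession and 311 through a synonym, and found no single match for 5, and a symbol whose features matched in different ways is counted under each. Each gene was represented by its feature with the highest mean, and no gene was filtered out. One limma model (version 3.58.1, R 4.3.3) with a mean per group was fitted over all 24 arrays with lmFit and eBayes, and p-values were adjusted by Benjamini-Hochberg over 20728 genes per comparison at 0.05, two-sided. On simulated data the fit recovered 69.5% of genes changed 1.5-fold and 93.0% of those changed 2-fold for bleomycin against PBS, with 5.44% and 4.62% of calls false, and 79.0% and 95.5% for gapmer 1, with 7.6% and 4.02% false. The simulation had independent normal noise and a small set of changed genes, only in the bleomycin control gapmer group. The real bleomycin comparison called 33.8% of all genes, so the rates may differ in these data. Tables and figures used Python 3.11.15, pandas 2.3.3, SciPy 1.17.1 and matplotlib 3.10.9.

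Every member is named, and values per sample are given for the 8 largest rises and 6 largest falls with bleomycin, the 8 largest falls and up to 4 largest rises with each gapmer, and Tnf, Fas and Fasl, with up to 4 called genes per other list. The members, gene lists and alternatives were chosen with earlier results of these data known. Alternatives were median centring, averaging a gene's features, testing every feature, leaving out dim genes, eBayes with a trend or robust, array weights, restricting the fit to the arrays of a comparison, a block on replicate number, RNA integrity as covariate, leaving out each array, and, chosen after seeing the data, removal of a trend over array position.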

Additional observations from a re-analysis of the deposited data

Results flagged for a closer look

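Among 111 sets of 5 arrays (37 members in 3 bleomycin groups), 8 held an array whose gap to its nearest neighbour exceeded 0.710 of the range, Dixon's limit for 5 samples, where chance alone gives about 1 in 20. Ltb was 12.70 in replicate 4 of gapmer 1 and 11.80 in replicate 3 of gapmer 3, and Tnfsf18 was 5.88 in that same gapmer 3 array. Replicate 5 of the control gapmer had 9.87 for Tnfrsf11a and 8.68 for Tnfsf13b, both the lowest of their group. Tnfsf13b was also low, at 9.20, in replicate 2 of gapmer 3. Tnfrsf21 was high, at 9.02, in replicate 5 of gapmer 1, and Tnfrsf8 was low, at 5.49, in replicate 2 of gapmer 1, where all its values are dim.

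The bleomycin response differed from that with the control gapmer, by the limma test of the difference itself, in 9 members with gapmer 1. The log2 changes were -1.19 for Lta, -1.15 for Tnfrsf4, -1.06 for Tnfsf18, -1.04 for Tnfsf8, -0.95 for Tnfrsf18, -0.76 for Tnfrsf13c, -0.65 for Tnfrsf13b, -0.58 for Tnfsf11 and 0.67 for Tnfrsf25. With gapmer 3 they were -1.0 for Tnfrsf13c, -0.95 for Tnfrsf18, -0.95 for Tnfsf8, -0.82 for Ltb and -0.69 for Tnfsf11.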

How the results depend on the processing

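Of 12910 values of single members under 35 other settings, 225 lost the call, 113 gained it and 1 changed direction with a call. That 1 was Tnfrsf9 with bleomycin, 0.49 (limma adjusted p = 0.000147) with the mean of both features. The other 12571 kept their side of the threshold. A change of direction between values that were both not called is counted among these 12571. Leaving out each array in turn gave 22 to 26 members called for bleomycin with the control gapmer, 9 to 16 for gapmer 1 and 12 to 15 for gapmer 3 in bleomycin mice, 0 to 1 for gapmer 1 in PBS mice, 4 to 12 and 3 to 10 for the changes in response with gapmers 1 and 3, and 3 to 12 and 7 to 13 for bleomycin with gapmers 1 and 3. The single call of gapmer 1 in PBS mice became 0 with median centring, every feature tested, only the groups compared, or the position trend removed. Array weights gave 14 and 10 members for the changes in response with gapmers 1 and 3. Bleomycin with gapmer 1 gave 2 members with only the groups compared and 4 with the RNA integrity number as covariate. The cause of these differences was not tested.

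Whether equal replicate numbers mark related samples is not settled by these values. Of 51 same-numbered pairs 27 correlated over 0.1, median 0.12, lowest -0.60. Of 186 other pairs 58 did, median -0.05. The main fit used no pairing. With the replicate block the change in response with gapmer 3 gave 9 members in place of 5, and no other count moved by over 1.5 times. Without detection calls, values near 6.11 set bounds only, and 3 arrays per PBS group limit what the PBS comparisons can show.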

Other observations

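Many members lie next to each other in the genome with no protein-coding gene between them, by RefSeq, and neighbours did not always share calls. On chromosome 17, Ltb, Tnf and Lta follow each other, and all 3 rose with bleomycin under the control gapmer. On chromosome 1, Tnfsf18 was at least 2.18-fold higher with bleomycin, against a PBS level under the dim level, while its neighbour Fasl fell by 0.31 on the log2 scale and its neighbour Tnfsf4, dim in every group, was not called. On chromosome 4, Tnfsf8 had 1.13 and its neighbour Tnfsf15 had -0.38.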
